A study of Hyacinthus orientalis with 189 samples.

Results

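Terpene synthases and the enzyme that feeds their plastid pathway were followed through the perianth of hyacinth (Hyacinthus orientalis), a bulb plant grown for its strongly scented flowers. The members were the unigenes whose best Swiss-Prot match names a terpene, terpineol, linalool, ocimene or myrcene synthase, a germacrene or farnesene enzyme, geranyl diphosphate synthase, or 1-deoxy-D-xylulose-5-phosphate synthase (DXS). A unigene is an assembled transcript that stands for a gene or for a piece of one. The rule uses words of the annotation and no measured value, and it took 126 of 494326 unigenes, of which 58 were terpene synthases, 67 were DXS and 1 was a geranyl diphosphate synthase match. No volatile compound was measured, so a product named here is that of the matched enzyme.

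The samples came from 7 cultivars, which were red ‘Jan Bos’, pink ‘Pink Pearl’, orange ‘Gipsy Queen’, yellow ‘City of Haarlem’, pinkish white ‘China Pink’, blue ‘Delft Blue’ and dark purple ‘Peter Stuyvesant’. The sport ‘China Pink’ arose from ‘Delft Blue’. Each cultivar was taken as green buds (Stage B), coloured buds (Stage C) and flowers at full anthesis (Stage A), and its flowers were dissected into the tube of the perianth and its outer and inner lobes. With 3 flowers in each of the 21 conditions there were 63 flowers, and each gave 3 libraries, one per partition. All bulbs had been dipped in a fungicide, vernalised in the cold and grown outdoors in a single season, and androecium and gynoecium were removed from every flower. Nothing in the labels says how flowers were spread over plants, so that the p-values for stages and cultivars measure the spread between flowers. For partitions, unless stated, libraries were fitted as samples without pairing those of the same flower. Those p-values measure the spread between libraries.

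Terpenes are built from isopentenyl and dimethylallyl diphosphate, which plants make by the methylerythritol phosphate (MEP) pathway in plastids and by the mevalonate pathway outside them. DXS catalyses the first step of the MEP pathway, from pyruvate and glyceraldehyde 3-phosphate. In many plants a DXS of type 1 serves photosynthetic tissue, and a DXS of type 2 is induced where special isoprenoids are formed. Geranyl diphosphate is the usual substrate of monoterpene synthases, which give scent compounds such as myrcene, ocimene, linalool and terpineol, while sesquiterpene synthases use farnesyl diphosphate to give compounds such as germacrene D.

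Levels are given as deposited FPKM, the fragments per kilobase of effective length scaled to the fragments of a library, and the level of a flower is the mean of its 3 partitions. Of the 126 members, 85 reached 10 counts in at least 3 libraries and were tested, 45 averaged at least 1 FPKM over the libraries, and 12 were detected in every library. The tested members were 40 DXS, 12 ocimene or myrcene synthases, 4 terpineol synthases, 23 terpene synthases without a named product, 2 linalool synthases and 4 germacrene D synthases. A mean FPKM of at least 20 was reached by 21 members, 17 terpene synthases and 4 DXS. Of the 183 unigenes in the whole transcriptome with a mean FPKM of at least 1000, 6 were members, and the highest of them, the terpene synthase Cluster-20417.193098, held rank 35 at a mean FPKM of 3178.

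The 17 abundant terpene synthases were pieces of genes rather than whole ones. They were 362 to 1282 bp long, and because FPKM divides by an effective length of only 82 to 993 bp, the levels of the shortest are the most uncertain. In the deposited annotation 11 of them carried only the C-terminal domain of terpene synthases, 1 only the N-terminal domain, 3 both domains and 2 neither, and the files do not say which of them are pieces of the same gene. Reads of near-identical pieces cannot be assigned to one of them with certainty. Of all members, 28 had their best Nr match in Asparagus, and 9 had a Swiss-Prot match to a species that is not a plant.

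The libraries held 12602435 to 20175905 counts each. At Stage A, the perianth tube library of ‘Gipsy Queen’, replicate 2, stood apart. Its 86 light-harvesting unigenes summed to 29097 FPKM, against 384 to 21389 FPKM in the other 62 libraries of Stage A, and its 14 class B floral unigenes, listed by their rice names after the data had been seen, summed to 87.5 FPKM, against at least 350.2 FPKM in the others. The abundant terpene synthases took 0.126% of its counts, against at least 0.355% in the others. These class B unigenes were present in every library of every stage, while the single unigene that the words first chosen for class B found stayed under 1.34 FPKM. Leaving out this library, or its whole flower for stages and cultivars, moved the counts of members called over stages, in the F tests and over partitions by at most 1.

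From green bud to anthesis, terpene synthases were the members that moved most. Together the 17 abundant ones took 0.000465% to 0.00620% of the counts of a flower at Stage B (median 0.00132%, n = 21), 0.00435% to 1.07% at Stage C (median 0.345%) and 0.596% to 1.68% at Stage A (median 0.853%). The lowest flower at Stage A was far above the highest flower at Stage B, and the flowers of Stage C lay between and overlapped both. These 17 were taken for their mean level over all libraries, Stage A included, so their number is a description and no support for the change. In bulk tissue, fewer cells of a type and less RNA per cell cannot be told apart.

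Cluster-20417.193098, whose match is the monoterpene synthase 7 of white ginger, ranged from 4.29 to 58.5 FPKM at Stage B (median 14.2), from 36.8 to 6728 FPKM at Stage C (median 2521) and from 3176 to 12023 FPKM at Stage A (median 6235), with 21 flowers per stage. Every flower at Stage A was above every flower at Stage B. Its log2 fold change was 9.39 ± 0.365 (SE) for Stage A against Stage B, with an adjusted p of 1.397e-27 in edgeR's quasi-likelihood test, and 7.47 ± 0.338 for Stage C against Stage B. Fold changes here and below use TMM library sizes and, unless stated, counts summed per flower.

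The myrcene synthase match Cluster-20417.191262 had 0.63 to 14.0 FPKM at Stage B (median 2.59), 5.80 to 5049 FPKM at Stage C (median 1752) and 2891 to 10954 FPKM at Stage A (median 4403). Myrcene synthases make the acyclic monoterpene myrcene from geranyl diphosphate. Here no flower of Stage A overlapped any flower of Stage B, and the log2 fold change of Stage A against Stage B was 11.48 ± 0.462 (edgeR, adjusted p = 5.58e-27). Cluster-20417.160703, a second unigene with a myrcene synthase match, had medians of 2.34 FPKM at Stage B, 1092 FPKM at Stage C and 2396 FPKM at Stage A. Its lowest flower at Stage C, with 11.2 FPKM, was already above its highest flower at Stage B, with 10.9 FPKM.

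Terpineol synthases form alpha-terpineol, a cyclic monoterpene alcohol. Cluster-20417.193097, with such a match, had medians of 12.1 FPKM at Stage B, 1624 FPKM at Stage C and 4172 FPKM at Stage A, and a log2 fold change of 9.13 ± 0.358 for Stage A against Stage B (edgeR, adjusted p = 1.852e-27). Cluster-20417.131718, matched to the alpha-terpineol synthase of a magnolia, ranged from 945 to 5089 FPKM at Stage A (median 2740). At Stage B it had 27 counts in all and 0 counts in 53 of 63 libraries, and its counts relative to the library totals were 12323-fold higher at Stage A than at Stage B.

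Cluster-20417.131714, a myrcene synthase match, and Cluster-20417.131717, a terpineol synthase match, followed the same course. The first had a median of 2491 FPKM at Stage A and 83 counts in all at Stage B. The second had a median of 1324 FPKM at Stage A and 137 counts in all at Stage B. Among terpene synthases without a named product, Cluster-20417.276255 and Cluster-20417.132510, both matched to monoterpene synthase 8 of white ginger, had medians of 1469 FPKM and 1164 FPKM at Stage A, against 2.55 FPKM and 1.53 FPKM at Stage B. The smallest p of all members for Stage A against Stage B belonged to Cluster-20417.169634, with another match to the same enzyme, which rose by 8.99 ± 0.327 on the log2 scale (edgeR, adjusted p = 1.257e-28).

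**Figure D1:**
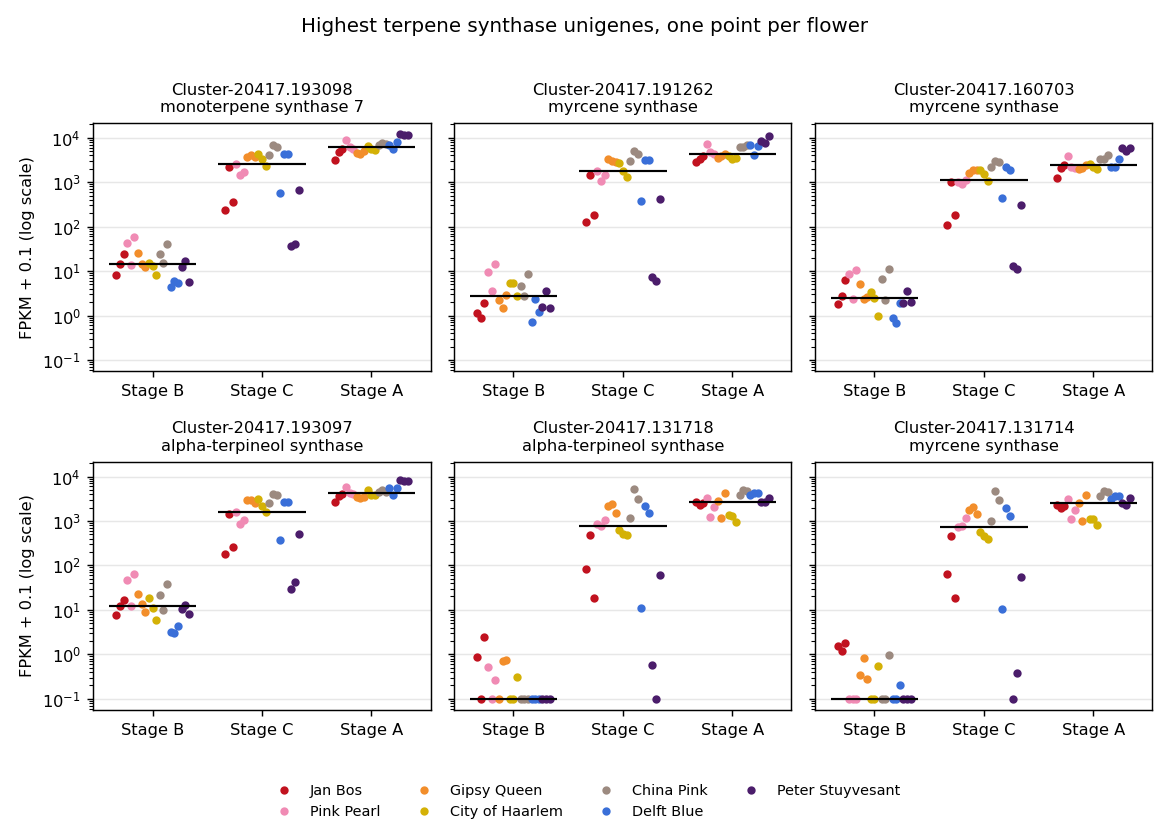
FPKM of 6 terpene synthase members in green buds (Stage B), coloured buds (Stage C) and at full anthesis (Stage A), on a log axis after adding 0.1, with one point per flower (21 per stage) coloured by cultivar and a line at the median. In each of the 6 panels all points of Stage A lie above all points of Stage B, and the points of Stage C spread from the level of Stage B to that of Stage A.

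Over all members tested, 32 of 85 were called higher at Stage A than at Stage B and 6 were called lower (edgeR, at least a 2-fold change with an adjusted p under 0.05). Of all 167352 unigenes tested, 14.9% were called higher and 18.4% lower. For Stage C against Stage B, 27 members were called higher and 3 lower, with 8.60% and 14.7% over all unigenes. For Stage A against Stage C, 24 members were called higher and 1 lower (2 without the ‘Gipsy Queen’ flower), with 7.21% and 4.97% over all unigenes. The members called higher at Stage A than at Stage B included 8 of 12 ocimene or myrcene synthases, 4 of 4 terpineol synthases, 13 of 23 without a named product, 1 of 2 linalool synthases and 6 of 40 DXS. Values of every flower at Stage A lay above those of every flower at Stage B for 20 of the 85 members, against 1.39% of all unigenes tested. With total counts as library sizes, 28 members were called higher and 12 lower at Stage A than at Stage B (9.62% and 30.7% over all unigenes), and 22 higher and 12 lower at Stage C than at Stage B (4.96% and 25.3%).

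Each of the 17 abundant terpene synthases, chosen for a mean level that includes Stage A, was called in both steps from Stage B. Without replicate 3 of every condition 12 of them were called at Stage C against Stage B, and without replicate 2 there were 16. Their log2 fold changes ran from 6.36 to 15.16 for Stage A against Stage B, with a median of 10.46, and from 4.90 to 12.70 for Stage C against Stage B. For Stage A against Stage C the range was 0.88 to 2.51, and 16 of 17 were called. The exception, Cluster-20417.138060, a myrcene synthase match outside the naming rule and picked after its values were seen, had a log2 fold change of 0.88 ± 0.238 there, with medians of 346 FPKM at Stage A and 281 FPKM at Stage C.

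DXS whose match names a type divided by that type. The other 22 DXS, of which 11 were tested, had no number in their match and are left out of this paragraph. The 11 unigenes matched to the DXS 2 of rice took a median share of 0.00336% of the counts of a flower in green buds (Stage B), 0.0956% in coloured buds (Stage C) and 0.160% at anthesis (Stage A). The 34 matched to DXS 1 took medians of 0.0145% in green buds, 0.00740% in coloured buds and 0.00745% at anthesis. By these medians DXS 1 had the larger share of counts in green buds and DXS 2 the larger share afterwards. The stage ranges of the 2 types overlapped at Stage C, where the DXS 2 share was 0.00333%, 0.00394% and 0.0213% in ‘Peter Stuyvesant’, against a DXS 1 share of 0.00837%, 0.0108% and 0.00707% in the same 3 flowers. Among tested members, 5 of 7 DXS 2 were called higher at Stage A than at Stage B and none lower, with a median log2 fold change of 1.73, and 0 of 22 DXS 1 were called higher and 1 lower, with a median of -0.42, against 14.9% called higher, 18.4% called lower and a median of -0.24 over all unigenes tested.

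Cluster-20417.243853, the most abundant DXS 2, had 2.91 to 24.5 FPKM at Stage B (median 8.37), 8.11 to 1069 FPKM at Stage C (median 301) and 133 to 2041 FPKM at Stage A (median 499.8). At 3291 bp it was also the longest of the 21 abundant members. No flower of Stage A overlapped a flower of Stage B, and its log2 fold change was 6.51 ± 0.312 for Stage A against Stage B (edgeR, adjusted p = 4.643e-24) and 5.33 ± 0.295 for Stage C against Stage B. Cluster-20417.196786, a shorter DXS 2 unigene, had medians of 2.68 FPKM at Stage B, 66.6 FPKM at Stage C and 138 FPKM at Stage A, with a log2 fold change of 6.20 ± 0.292 for Stage A against Stage B. The other 3 called DXS 2 rose less, by 1.49 ± 0.174 (Cluster-20417.190293), 1.73 ± 0.188 (Cluster-20417.171209) and 1.97 ± 0.213 (Cluster-20417.180578).

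The most abundant DXS 1, Cluster-20417.238729, had 56.5 to 112 FPKM at Stage B (median 80), 22 to 57.5 FPKM at Stage C (median 38.5) and 19.2 to 83.4 FPKM at Stage A (median 38.7). The green buds overlapped the coloured buds only at the edge, and some flowers of Stage A reached their level. FPKM is relative to the total of a library. On TMM library sizes the log2 fold change of Stage A against Stage B was -0.21 ± 0.116 and missed the threshold (edgeR, adjusted p = 0.140). The log2 TMM factors averaged -0.27 at Stage A and 0.37 at Stage B, so that a unigene with equal TMM levels has a lower FPKM at Stage A. The short DXS unigene Cluster-20417.229790, of 357 bp and matched to the single DXS of Arabidopsis, behaved alike, with medians of 109 FPKM at Stage B, 56.5 FPKM at Stage C and 61.6 FPKM at Stage A and a TMM log2 fold change of -0.03 ± 0.140. With total counts as library sizes, a scaling added after the data had been seen, the log2 fold changes were -0.85 for Cluster-20417.238729 and -0.67 for Cluster-20417.229790, beside a median of -0.77 over all unigenes tested. On that scale Cluster-20417.190293 had 0.86 and missed the fold threshold.

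**Figure D2:**
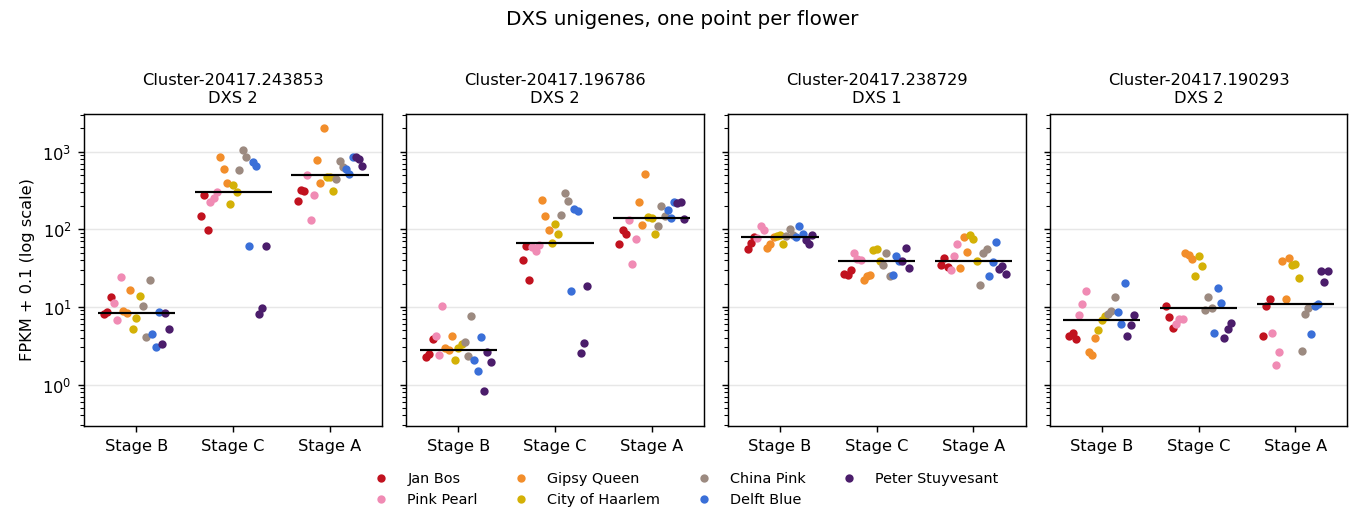
FPKM of 4 DXS unigenes at Stage B, Stage C and Stage A on a log axis after adding 0.1, with one point per flower (21 per stage) coloured by cultivar and a line at the median. The DXS 2 unigenes Cluster-20417.243853 and Cluster-20417.196786 climb from single digits in green buds, the DXS 1 unigene Cluster-20417.238729 is highest in green buds, and the DXS 2 unigene Cluster-20417.190293 spreads among cultivars after Stage B.

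A few members of low level were called lower at Stage A than at Stage B. The DXS unigene Cluster-20417.162401 had medians of 0.0433 FPKM at Stage A and 0.28 FPKM at Stage B, and fell by 2.17 on the log2 scale (SE 0.246, edgeR, adjusted p = 9.692e-12). Cluster-20417.262184, a DXS 1, had medians of 0.243 FPKM at Stage A and 1.37 FPKM at Stage B and fell by 1.99 (SE 0.222). Cluster-20417.193829, matched to a castor bean terpene synthase, fell by 1.57 (SE 0.249), with medians of 0.127 FPKM at Stage A and 0.570 FPKM at Stage B. Cluster-20417.190557, a myrcene synthase match with a median of 0 FPKM at both Stage C and Stage A, was called lower at Stage C than at Stage B by 1.75 on the log2 scale (SE 0.680, edgeR, adjusted p = 0.0318). In a fit of these stages alone with libraries as replicates its log2 fold change was 0.04.

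Linalool synthases make linalool, a floral monoterpene alcohol, and here they were scarce. Cluster-20417.322990 had 0 to 3.81 FPKM at Stage A (median 1.88) and 0 to 2.25 FPKM at Stage B (median 0.153), with a log2 fold change of 3.30 ± 0.508 for Stage A against Stage B (edgeR, adjusted p = 8.052e-08). In Nr its best match was a terpineol synthase-like protein of Asparagus. Cluster-20417.134775, matched to the S-(+)-linalool synthase of rice, had medians of 1.17 FPKM at Stage B, 0.750 FPKM at Stage C and 0.530 FPKM at Stage A. The geranyl diphosphate synthase match, Cluster-36653.0, was too rare to test, with 9 counts in all, each of them at Stage A, where 60 of 63 libraries had 0 counts.

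All 4 tested sesquiterpene members of this group matched the germacrene D synthase of grape, and none was called higher at Stage A than at Stage B, while 3 were called lower. Cluster-20417.218118 had medians of 0.567 FPKM at Stage A and 2.73 FPKM at Stage B and fell by 1.72 on the log2 scale (SE 0.321, edgeR, adjusted p = 6.998e-06). Cluster-20417.350613 had medians of 0.240 FPKM at Stage A and 1.26 FPKM at Stage B and fell by 1.29 (SE 0.40, edgeR, adjusted p = 0.00474). Flowers of both stages overlapped in both unigenes. The most abundant one, Cluster-20417.217986, depended on the cultivar and is described below.

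The pathway around the members was counted with lists made from Swiss-Prot words, to be read against the 14.9% called higher and 18.4% called lower of all unigenes tested. Of 52 tested unigenes for the MEP steps after DXS, 19 were called higher at Stage A than at Stage B and 2 lower, with a median log2 fold change of 0.39. The most abundant of them, Cluster-20417.240844, matched to the hydroxymethylbutenyl diphosphate synthase, had a log2 fold change of 1.12 ± 0.0583. Of 65 mevalonate pathway unigenes, 7 were called higher and 13 lower, with a median of -0.20, close to the shares and the median over all unigenes. Of 3 isopentenyl diphosphate isomerases 0 were called higher and 1 lower, and of 23 entry enzymes of diterpene, sterol and carotenoid synthesis 9 were called higher and 5 lower. Over all unigenes tested the median log2 fold change was -0.24 for the same comparison.

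Among 14 other prenyl diphosphate synthases, 8 were called higher at Stage A than at Stage B and 1 lower. The most abundant, Cluster-20417.240780, is matched to the small subunit of a heterodimeric geranylgeranyl diphosphate synthase of Arabidopsis, a protein known in several plants to turn its partner towards geranyl diphosphate. It rose by 6.26 ± 0.318 on the log2 scale, with mean levels of 8.40 FPKM at Stage B, 441 FPKM at Stage C and 286 FPKM at Stage A. Another unigene with the same match, Cluster-20417.230910, moved little, with means of 35.3 FPKM at Stage B, 50.2 FPKM at Stage C and 42.1 FPKM at Stage A. Of 9 tested terpene synthases named by products outside the rule, 4 were called higher at Stage A than at Stage B and none lower. Cluster-20417.131716, a limonene synthase match, led them with means of 0.218 FPKM at Stage B, 485 FPKM at Stage C and 1158 FPKM at Stage A.

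Light-harvesting unigenes moved the other way, with 0 of 79 called higher at Stage A than at Stage B and 55 called lower. Their summed level had medians of 1909 FPKM in the tube, 985 FPKM in the outer lobes and 1003 FPKM in the inner lobes at Stage A, and of 33347 FPKM in the tube, 85309 FPKM in the outer lobes and 77003 FPKM in the inner lobes at Stage B. Of 52 unigenes listed as stamen and pollen markers, 18 were called higher at Stage A than at Stage B and 7 lower. The part of these markers in the changes of the members was not tested.

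The course of the terpene synthases over stages differed between cultivars. The difference between stages differed between cultivars for 39 of 85 members (edgeR, F test on 12 degrees of freedom), against 28.9% of all unigenes tested, and for each of the 17 abundant terpene synthases. Without replicate 1 or without replicate 2 of every condition it was 19 of 85. The 28.9% belongs to the full fit, and the share over all unigenes in these smaller fits is not given here. That count can therefore not be set against a background. The share of counts that these 17 had at Stage C, as a percent of their share at Stage A, was 80.9% in ‘Gipsy Queen’, 72.7% in ‘China Pink’, 56.0% in ‘City of Haarlem’, 39.9% in ‘Delft Blue’, 32.2% in ‘Pink Pearl’, 15.3% in ‘Jan Bos’ and 2.06% in ‘Peter Stuyvesant’. Single flowers weighed on 2 of these values. Without each Stage C flower in turn the percent was 0.282% to 2.95% in ‘Peter Stuyvesant’, lowest without replicate 3, and 4.63% to 20.9% in ‘Jan Bos’, lowest without replicate 2. In the other 5 cultivars it stayed between 28.9% and 85.1%, with 30.5% to 56.1% in ‘Delft Blue’.

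Within single cultivars, the members called higher at Stage A than at Stage B numbered 29 to 33 and those called lower 2 to 8. Summed over the 7 cultivars the lower calls were 41, against 100 with total counts as library sizes, and at Stage C against Stage B they were 26, against 92. Of all unigenes the shares called higher and lower there were 12.7% and 12.4% in ‘Jan Bos’, 14.1% and 15.7% in ‘Pink Pearl’, 15.3% and 16.4% in ‘Gipsy Queen’, 12.6% and 16.0% in ‘City of Haarlem’, 18.7% and 22.4% in ‘China Pink’, 17.1% and 23.4% in ‘Delft Blue’, and 13.5% and 16.1% in ‘Peter Stuyvesant’. At Stage C against Stage B 24 members were called higher and 5 lower in ‘Jan Bos’ (9.10% and 7.65% of all unigenes), 29 and 3 in ‘Pink Pearl’ (8.88% and 12.2%), 28 and 5 in ‘Gipsy Queen’ (9.45% and 12.7%), and 26 and 2 in ‘City of Haarlem’ (9.62% and 14.6%). There were 26 higher and 7 lower in ‘China Pink’ (13.1% and 17.3%), 26 and 3 in ‘Delft Blue’ (12.3% and 17.9%), and 24 and 1 in ‘Peter Stuyvesant’ (5.05% and 5.75%).

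‘Peter Stuyvesant’ stood at the late end. At full anthesis the share of the 17 was 1.55% on average, the highest mean of the 7 cultivars, and in its coloured buds it was 0.0319%. Cluster-20417.193098 had 12023, 11439 and 11458 FPKM in its 3 flowers at Stage A and 36.8, 40.8 and 674 FPKM at Stage C. In the coloured buds of ‘China Pink’ the same unigene had 4191, 6728 and 6146 FPKM. Of the 3 coloured flowers of ‘Peter Stuyvesant’, 2 were within the range of the green buds of all cultivars and the other was in between. Against its own green buds, 15 of the 17 were called higher at Stage C. The 9 of them described below as the first set summed to 121, 131 and 2361 FPKM in its coloured flowers, against 31.9, 44.9 and 21.3 FPKM in its green buds.

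For ‘Peter Stuyvesant’ the change of Stage C against Stage B was smaller than in the other 6 cultivars in the fit of each of the 17, with a median difference of -3.03 on the log2 scale, and 5 of them passed the test. They were Cluster-20417.193098 (-3.03 ± 0.783, edgeR, adjusted p = 0.0109), Cluster-20417.169634, Cluster-20417.160703, Cluster-20417.191262 and Cluster-20417.193097. Among all 85 members 7 were called lower in this contrast and 2 higher, against 1.62% and 3.21% of all unigenes tested. Without replicate 2 of every condition none of the 17 was called and their median difference was -1.57, without replicate 1 there was 1 called, and without replicate 3 there were 10. limma-trend called all 17, with a median difference of -4.79, and DESeq2 called 11, with 2 of the 17 positive and a highest value of 9.76. The DXS 2 unigenes Cluster-20417.243853 (-3.18 ± 0.746) and Cluster-20417.196786 (-2.80 ± 0.751) were among the 7 members called lower. Cluster-20417.243853 had 8.11, 9.51 and 61.6 FPKM in the coloured buds of ‘Peter Stuyvesant’, where light-harvesting unigenes summed to 16666, 25206 and 6132 FPKM in the same 3 flowers, against means of 822 to 6706 FPKM in the coloured buds of the other cultivars. The flower with the least light-harvesting RNA had the most of both unigenes, and the part of this difference in the result was not tested.

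Spread among flowers of Stage C was wide in some other cultivars as well. Cluster-20417.193098 had 583, 4315 and 4210 FPKM in the coloured buds of ‘Delft Blue’ and 232, 2141 and 357 FPKM in those of ‘Jan Bos’. By contrast it had 3775, 4104 and 3722 FPKM in those of ‘Gipsy Queen’. In ‘Delft Blue’ the rise to Stage C was larger than in the other 6 cultivars for this unigene, by 2.85 ± 0.797 on the log2 scale (edgeR, adjusted p = 0.0256), and its green buds had 4.29, 5.91 and 5.19 FPKM.

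**Figure D3:**
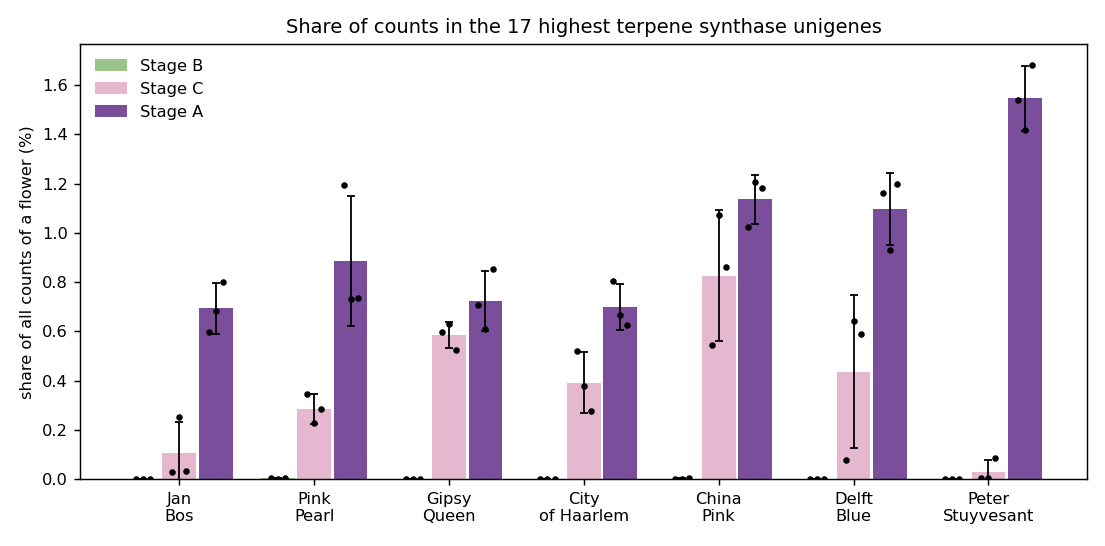
Percent of the counts of a flower in the 17 terpene synthases with a mean FPKM of at least 20, by cultivar at Stage B, Stage C and Stage A, with bars at the mean of 3 flowers, a point per flower and whiskers of 1 SD. The bar of Stage C is near that of Stage A in ‘Gipsy Queen’ and is a small part of it in ‘Jan Bos’ and ‘Peter Stuyvesant’, which has the highest bar at Stage A.

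At full anthesis the 17 abundant terpene synthases fell into 2 sets by how their levels moved over the 21 flowers, found after the values were seen by average linkage of Pearson's r. The first 9, led by Cluster-20417.193098 and Cluster-20417.191262, had r of 0.54 to 0.98 with each other (median 0.87, median Spearman's rho 0.85). The other 8, among them Cluster-20417.131714, Cluster-20417.131717 and Cluster-20417.131718, had r of 0.34 to 0.995 with each other (median 0.90, median rho 0.90). Between the sets r was -0.11 to 0.65 (median 0.33, median rho 0.40). Over all 63 flowers r was 0.79 to 0.999 over all pairs. The points share stage, cultivar and library, so these values are a description. Because the 17 moved together, a count of signs over them is a description too.

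Summed over the set of 9, ‘Peter Stuyvesant’ had 41828, 38400 and 43608 FPKM at Stage A, all above the highest flower of the other cultivars, a ‘Pink Pearl’ flower with 30557 FPKM. Summed over the set of 8, the highest means were in ‘China Pink’, with 13797 ± 1740 FPKM, and ‘Delft Blue’, with 12270 ± 597 FPKM, and the lowest was in ‘City of Haarlem’, with 3593 ± 613 FPKM (SD, n = 3 each). ‘Peter Stuyvesant’ had 8888 ± 1489 FPKM there. ‘Jan Bos’ (7398 ± 573 FPKM), ‘Pink Pearl’ (6664 ± 3092 FPKM) and ‘Gipsy Queen’ (8141 ± 4577 FPKM) were not apart beyond their spread. The flowers with the least of the set of 8 in ‘Pink Pearl’ and ‘Gipsy Queen’, 3850 FPKM and 3397 FPKM, were also those with the most light-harvesting RNA of their cultivar, 10712 FPKM and 10633 FPKM. In ‘Gipsy Queen’ this is the flower whose tube library stood apart, with 118 FPKM of the set of 8 in that library. Its lobes averaged 5036 FPKM of the set of 8 and 1401 FPKM of light-harvesting RNA, against 8946 FPKM and 13515 FPKM of the set of 8 and 1945 FPKM and 655 FPKM of light-harvesting RNA in the lobes of the other 2 flowers. In the lobes this flower had the least of the set of 8, and its light-harvesting RNA lay between that of the other 2 flowers. The other cultivars are not given here, and the part of light-harvesting RNA in these levels was not tested.

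At Stage A alone, each cultivar against the other 6, few of the 17 were called. In ‘Peter Stuyvesant’ all 17 had a positive fold change and 3 were called higher, which were Cluster-20417.138060, Cluster-20417.193099 and Cluster-20417.169634, the first 2 of them picked after their values were seen. Cluster-20417.138060 had 909.5, 707 and 932 FPKM in ‘Peter Stuyvesant’, against 75.8 to 601 FPKM in the 18 flowers of the other cultivars, and a log2 fold change of 1.55 ± 0.423 (edgeR, adjusted p = 0.00354). Over all 85 members 28 were called higher and 5 lower in ‘Peter Stuyvesant’ at Stage A, against 18.0% and 5.45% of all unigenes tested.

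In ‘City of Haarlem’ a single myrcene synthase match was nearly missing. Cluster-20417.115415, picked after its values were seen, had 2.15, 1.48 and 2.30 FPKM in ‘City of Haarlem’ at Stage A, against 42.2 to 168 FPKM in the 18 flowers of the other cultivars. These groups did not overlap, and the log2 fold change was -5.63 ± 0.792 (edgeR, adjusted p = 1.522e-07). Another 2 of the set of 8 were called lower there, Cluster-20417.121402 (-1.50 ± 0.502) and Cluster-20417.131715 (-1.86 ± 0.625). Among all 85 members 12 were called higher and 13 lower in ‘City of Haarlem’ at Stage A, against 19.2% and 7.96% of all unigenes tested.

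**Figure D4:**
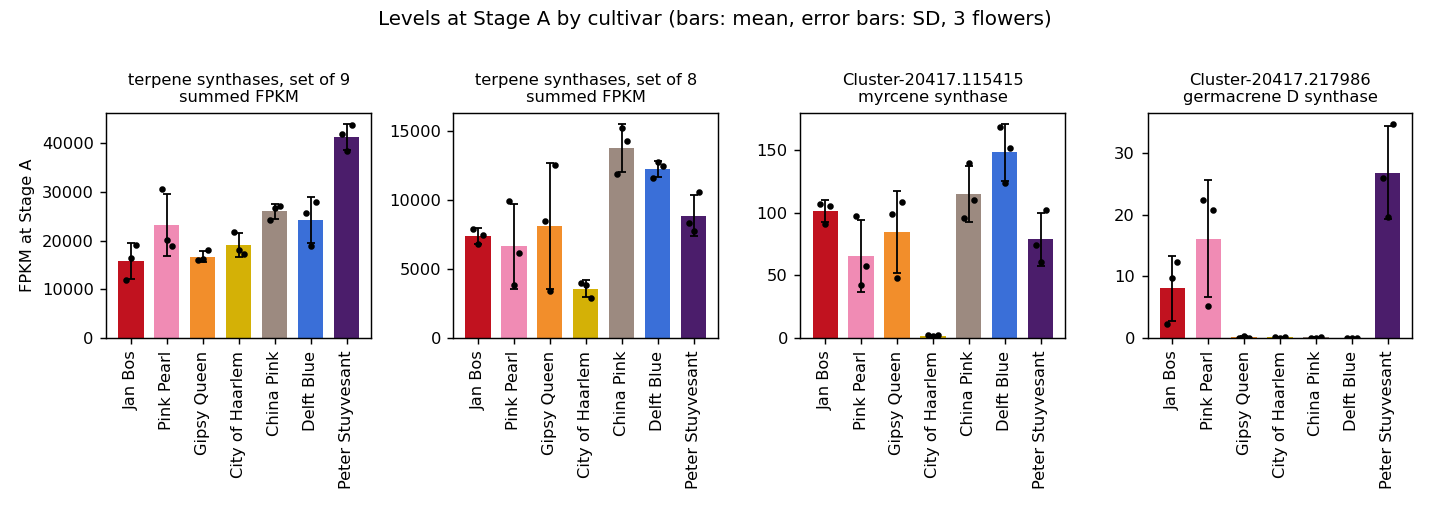
FPKM at Stage A by cultivar, summed over the set of 9 and the set of 8 terpene synthases and for the single unigenes Cluster-20417.115415 and Cluster-20417.217986, with bars at the mean of 3 flowers, a point per flower and whiskers of 1 SD. ‘Peter Stuyvesant’ is highest in the set of 9, ‘China Pink’ and ‘Delft Blue’ in the set of 8, Cluster-20417.115415 is near 0 in ‘City of Haarlem’ and Cluster-20417.217986 is present in 3 cultivars.

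A germacrene D synthase match differed between cultivars. Over the 9 flowers of a cultivar, Cluster-20417.217986 had 2.07 to 16.8 FPKM in ‘Jan Bos’ (median 9.71), 0.46 to 40.1 FPKM in ‘Pink Pearl’ (median 18.6) and 0.833 to 34.7 FPKM in ‘Peter Stuyvesant’ (median 11), against medians of 0.063 to 0.287 FPKM and at most 1.09 FPKM in the other 4 cultivars. Averaged over stages it was called higher in each of these 3 cultivars, by 3.67 ± 0.216 in ‘Jan Bos’, 3.94 ± 0.230 in ‘Pink Pearl’ and 3.63 ± 0.231 in ‘Peter Stuyvesant’, each against the other 6. Its rise from green buds also differed. For Stage A against Stage B the change exceeded that of the other 6 cultivars by 5.14 ± 0.657 in ‘Peter Stuyvesant’ (edgeR, adjusted p = 5.068e-07) and by 4.08 ± 0.646 in ‘Pink Pearl’ (adjusted p = 7.77e-05).

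The DXS 2 unigene Cluster-20417.190293, picked after its values were seen, had another order of cultivars than the main DXS 2. It had 49.8, 46.9 and 40.8 FPKM in coloured buds of ‘Gipsy Queen’ and 25.2, 45.1 and 33.3 FPKM in those of ‘City of Haarlem’, against 3.83 to 17.3 FPKM in the coloured buds of the other 5 cultivars. At Stage A it had 29.0, 21.1 and 28.8 FPKM in ‘Peter Stuyvesant’ and 4.48, 1.69 and 2.53 FPKM in ‘Pink Pearl’. The change of Stage C against Stage B in ‘Gipsy Queen’ exceeded that of the other 6 cultivars by 3.63 ± 0.522 on the log2 scale (edgeR, adjusted p = 7.962e-06).

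Averaged over stages, 73 of 85 members differed between cultivars in some way (edgeR, F test on 6 degrees of freedom), against 85.4% of all unigenes tested. Counts of members called in each cultivar against the other 6 were 23 higher and 4 lower in ‘Jan Bos’ (background 17.8% and 6.30%), 14 and 9 in ‘Pink Pearl’ (14.6% and 6.13%), 11 and 7 in ‘Gipsy Queen’ (16.6% and 8.69%), and 12 and 11 in ‘City of Haarlem’ (19.8% and 7.61%). They were 21 higher and 6 lower in ‘China Pink’ (19.9% and 3.56%), 16 and 2 in ‘Delft Blue’ (20% and 2.55%), and 25 and 9 in ‘Peter Stuyvesant’ (20% and 5.98%). Summed over the 7 cultivars the lower calls were 48, against 110 in limma-trend and 125 in DESeq2. The 7 comparisons share samples.

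Among the DXS 1 unigenes, Cluster-20417.252786 had medians of 7.10 FPKM in ‘Jan Bos’, 8.23 FPKM in ‘City of Haarlem’ and 5.98 FPKM in ‘Peter Stuyvesant’, and 0 counts in all 27 flowers of ‘Pink Pearl’, ‘China Pink’ and ‘Delft Blue’. A limit of 3 counts over those flowers made it at least 2522-fold higher in ‘Jan Bos’, ‘City of Haarlem’ and ‘Peter Stuyvesant’. Cluster-20417.240582 was found in ‘Jan Bos’, with 1443 counts, and ‘Peter Stuyvesant’, with 819 counts, and had at most 12 counts in any other cultivar. Cluster-20417.286461 showed 1107 counts in ‘Pink Pearl’, 808 counts in ‘China Pink’ and 826 counts in ‘Delft Blue’, and only 2 counts in ‘Peter Stuyvesant’. Cluster-20417.200878 had 0 counts in ‘City of Haarlem’ against 553 to 892 counts in each other cultivar, at least 252-fold lower with the same limit. The files do not tell alleles from genes.

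Terpene synthases of low level were divided in a like way. Cluster-20417.179270, without a named product, had 19 counts in ‘Pink Pearl’ against 435 to 1321 counts in each other cultivar, a log2 fold change of -5.07 ± 0.295 (edgeR, adjusted p = 1.04e-21). Cluster-20417.119543, an ocimene or myrcene synthase match, had 429 counts in ‘Gipsy Queen’ against 8 to 92 counts elsewhere and rose by 3.9 ± 0.226 there. Cluster-20417.134775, the rice linalool synthase match, had 8 counts in ‘Gipsy Queen’ against 42 to 364 counts elsewhere, a log2 fold change of -4.93 ± 0.499. The other linalool synthase match, Cluster-20417.322990, had 7 counts in ‘Peter Stuyvesant’ against 58 to 88 counts in the other cultivars and fell by 4.08 (SE 0.934).

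Cluster-20417.178087 marked the sport and its parent, with medians of 1.2 FPKM in ‘China Pink’ and 1.05 FPKM in ‘Delft Blue’ and at most 0.113 FPKM in the median elsewhere. Cluster-20417.284336 had a median of 0.140 FPKM in ‘China Pink’, 0.127 FPKM in ‘Delft Blue’, 0.190 FPKM in ‘Gipsy Queen’ and 0.350 FPKM in ‘City of Haarlem’, against 2.09 FPKM in ‘Jan Bos’, 3.79 FPKM in ‘Pink Pearl’ and 3.03 FPKM in ‘Peter Stuyvesant’. Cluster-20417.323410, picked after its values were seen, had 208, 472 and 385 counts in ‘Jan Bos’, ‘Pink Pearl’ and ‘Peter Stuyvesant’ and 0 counts in the other 4 cultivars. These 3 cultivars were also those with Cluster-20417.217986 at more than trace level.

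Between ‘China Pink’ and ‘Delft Blue’ themselves 0 of 85 members were called by edgeR, against 0.238% called higher and 0.170% called lower of all unigenes tested. At an unadjusted p under 0.05 there were 14 members, against 11.9% of all unigenes tested. Averaged over stages, 16 of the 17 abundant terpene synthases had a positive fold change of ‘China Pink’ against ‘Delft Blue’. The median was 1.10 on the log2 scale and the smallest adjusted p in edgeR was 0.0515. The stages were unlike. The mean share of the 17 was 1.14% against 1.10% at Stage A, 0.826% against 0.437% at Stage C and 0.00278% against 0.000539% at Stage B. In the 3 coloured flowers of ‘Delft Blue’ the set of 9 summed to 2399, 15264 and 14601 FPKM. Cluster-20417.193099, picked after its values were seen, was called with median-ratio size factors at 1.28 ± 0.337 (edgeR, adjusted p = 0.0467) and without the ‘Gipsy Queen’ flower named above at 1.27 ± 0.343 (adjusted p = 0.0473). DESeq2 called 8 members, of which 6 were among the 17, each of them higher in ‘China Pink’.

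Within the flower, members differed less than over stages. Of 85 members 1 was called higher and 1 lower in the perianth tube than in the lobes when stages were averaged (edgeR, libraries as samples), against 3.24% and 1.13% of all unigenes tested. They were the DXS 1 Cluster-20417.21461, with a mean of at most 0.217 FPKM in any partition and stage, and the ocimene synthase match Cluster-20417.158753. Neither passed the fold threshold in limma-trend, with or without the flower as a block, where they had 0.14 and -0.64, and Cluster-20417.21461 was also not called without replicate 1 and was not tested without replicate 2 or with filterByExpr. Cluster-20417.158753 had medians of 0, 0 and 0.680 FPKM in the tube at Stages B, C and A, against 0.0600, 0.220 and 1.03 FPKM in the outer lobes. No member was called between outer and inner lobes averaged over stages by edgeR, against 0.0305% called higher and 0.00896% called lower of all unigenes tested. At an unadjusted p under 0.05 there were 6, against 8.17% of all unigenes tested.

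At Stage A the abundant terpene synthases had somewhat lower values in the tube. The share of counts in the 17 was 0.126% to 1.49% in the tube (median 0.783%), against 0.666% to 1.85% in the outer lobes (median 0.960%) and 0.513% to 1.87% in the inner lobes (median 0.939%), with 21 libraries each. Partitions overlapped widely. The 17 log2 fold changes of tube against lobes at Stage A were all negative, from -0.85 to -0.21 with a median of -0.56, and none passed the fold threshold. Because the 17 varied together over flowers, their signs are not separate observations. Cluster-20417.121402 was lowest at -0.85 (edgeR, adjusted p = 0.000328). At Stage C the median was 0.0018, with 9 of 17 positive. At Stage B 14 of the 17 were positive, at very low levels. Without the ‘Gipsy Queen’ tube library all 17 were still negative at Stage A, with a median of -0.48. limma-trend on log2 CPM called 6 of them lower in the tube at Stage A, with and without the flower as a block, from -1.1 to -1.0.

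In coloured buds the abundant terpene synthases had higher fitted values in the outer lobes than in the inner lobes, a pattern looked at after its values were seen. The share of counts in the 17 at Stage C was 0.00462% to 1.08% in the outer lobes (median 0.362%), against 0.00239% to 1.16% in the inner lobes (median 0.268%), and it was larger in the outer lobes of the same flower in 16 of 21 flowers. ‘City of Haarlem’ and ‘China Pink’ had 1 such flower of 3 each. All 17 log2 fold changes of outer against inner lobes were positive, from 0.17 to 1.06 with a median of 0.67, and they were positive under every alternative run. These 17 varied together over the 63 flowers (median r 0.975) and the alternatives share libraries, so the signs are not separate observations. None of the 85 members was called by edgeR (smallest adjusted p among the 17, 0.606), against 0.00598% called higher and 0.00179% called lower of all unigenes tested. At an unadjusted p under 0.05 there were 14 members, against 5.12% of all unigenes tested. None of the 17 had an unadjusted p under 0.05 without replicate 3, where the median was 0.46. With the flower as a block in limma-trend 2 of the 17 had an adjusted p under 0.05, Cluster-20417.191262 at 0.73 ± 0.176 (adjusted p = 0.0360) and Cluster-20417.131718 at 0.87 ± 0.212 (adjusted p = 0.0404), both within the fold threshold. At Stage A the median difference was 0.088, and at Stage B it was -0.0044.

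**Figure D5:**
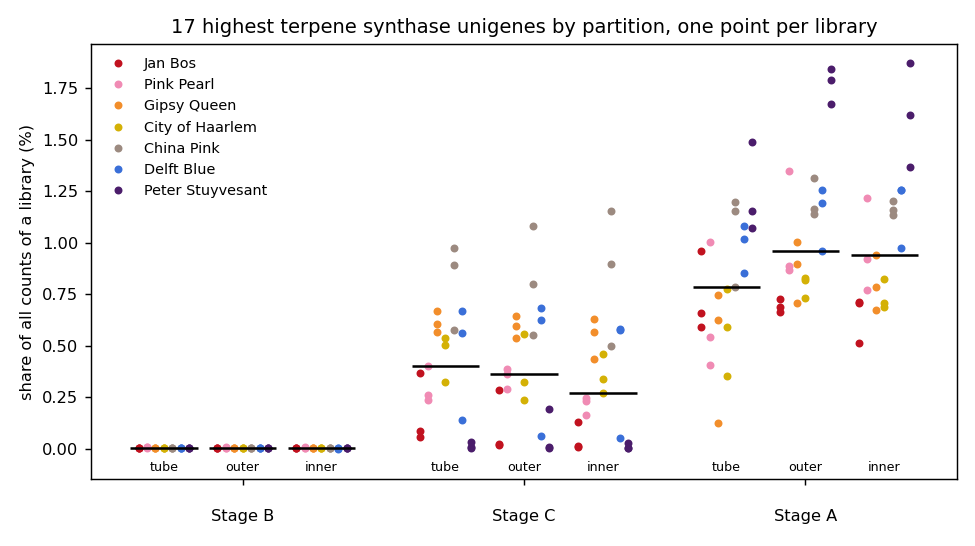
Percent of the counts of a library in the 17 abundant terpene synthases by partition (tube, outer lobes, inner lobes) at Stage B, Stage C and Stage A, with one point per library (21 each) and a line at the median. Partitions overlap at every stage, and the medians at Stage A are 0.783% in the tube, 0.960% in the outer lobes and 0.939% in the inner lobes.

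Of the 7 tested DXS 2 unigenes, 3 were called higher in the tube of coloured buds. Cluster-20417.243853 had 13.7 to 1234 FPKM in the tube at Stage C (median 496), against 4.68 to 902 FPKM in the outer lobes (median 267) and 5.85 to 1066 FPKM in the inner lobes (median 187). Its log2 fold change of tube against lobes there was 1.11 ± 0.239 (edgeR, adjusted p = 0.000151), and Cluster-20417.190293 and Cluster-20417.171209 were called with it, at 1.33 ± 0.156 and 1.04 ± 0.171. Cluster-20417.171209 missed the fold threshold at 0.99 in limma-trend, with and without the flower as a block, and at 0.85 without replicate 2, with adjusted p-values up to 0.00277. Among all 85 members 5 were called higher and 1 lower in the tube at Stage C, against 3.52% and 2.31% of all unigenes tested. At Stage A the medians of Cluster-20417.243853 were 542 FPKM in the tube, 513 FPKM in the outer lobes and 528 FPKM in the inner lobes.

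Of the 4 tested germacrene D synthases, 2 were called higher in the tube at anthesis. Cluster-20417.350613 had 0 to 14.7 FPKM in the tube at Stage A (mean 1.43), against 0 to 1.64 FPKM in the outer lobes (mean 0.234) and 0 to 1.35 FPKM in the inner lobes (mean 0.265), a log2 fold change of 2.10 ± 0.357 (edgeR, adjusted p = 2.732e-07). Cluster-20417.218118 had medians of 0.820 FPKM in the tube, 0.160 FPKM in the outer lobes and 0.290 FPKM in the inner lobes, a log2 fold change of 1.63 ± 0.323 (edgeR, adjusted p = 1.573e-05). Among all 85 members 7 were called higher and 2 lower in the tube at Stage A, against 7.95% and 3.61% of all unigenes tested. limma-trend called none of these 7 and none of these 2. Of 52 stamen and pollen markers 24 were called higher and 0 lower in the tube over stages, against 3.24% and 1.13% of all unigenes tested, and all 3 class C unigenes, the floral genes of stamens and carpels, were called higher. Their part in the difference of the members was not tested.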

How the data were processed

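Perianth RNA was poly-A selected and sequenced as paired ends. The authors assembled the reads of all libraries with Trinity, clustered them with CORSET, mapped with Bowtie and counted with RSEM (versions are not given in the sources used here). The deposited values are expected counts per unigene and library, without normalisation, and the FPKM that the authors computed from them, which imply an effective length shorter than the deposited one. No value column was without a sample.

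Expected counts were rounded to whole numbers. For stages and cultivars the counts of the 3 partitions of a flower were summed and 21 means of cultivar and stage were fitted to 63 flowers. For partitions 189 libraries were fitted with these means and a partition effect at each stage. edgeR 4.0.16 (R 4.3.3, limma 3.58.1) gave quasi-likelihood tests with TMM library sizes for the 167352 unigenes that reached 10 counts in 3 or more libraries, and p-values were adjusted over all of them by Benjamini and Hochberg. A unigene was called at an adjusted p under 0.05 and a log2 fold change beyond 1 in either direction, and F tests by the adjusted p alone. Counts and levels were handled with Python 3.11.15, numpy 2.4.6, pandas 2.3.3 and scipy 1.17.1, and figures with matplotlib 3.10.9. The scripts were tested on simulated data. Library totals of 12602435 to 20175905 counts limit the precision for rare unigenes, and limits from 0 counts (3 counts over the group) cover counting error only.

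Members and lists were chosen with earlier results of these data known. Named members are the 3 of highest mean FPKM in each role among those with a mean of at least 1 (or the highest one), the 3 called members of smallest p in each direction for Stage A against Stage B, Stage C against Stage B and tube against lobes, and the called member of smallest p in each direction for each cultivar. All other unigenes named were picked after their values were seen. Samples were grouped by their labels. Same-numbered partitions come from the same flower. Their deviations from the condition means had a median correlation of 0.488, with 187 of 189 over 0.1, while same-numbered flowers of other stages had a median of 0.026. No 2 libraries were identical.

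Alternatives were median-ratio size factors, no filter on low counts, filterByExpr, DESeq2 1.42.0, limma-trend with a prior count of 2, every library as a replicate, a replicate block, leaving out each replicate number, and a pseudocount of 0.1 for the co-variation. Added after seeing the data were total counts as library sizes, Stage A alone for cultivars, full-length levels, rice-named class B unigenes, outer against inner lobes at each stage and leaving out one ‘Gipsy Queen’ library or flower.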

Additional observations from a re-analysis of the deposited data

Results flagged for a closer look

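These results are listed because the difference in effect between groups passed its own test in edgeR. Values are differences of log2 changes, one cultivar minus the mean of the other 6 or one stage minus another, and a contrast on the same samples is not independent of the next.

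The difference between stages differed between cultivars for 39 of 85 members, against 28.9% of all unigenes tested. For Stage A against Stage B the single cultivars had 6 members called in ‘Pink Pearl’, 4 in ‘Gipsy Queen’, 3 in ‘Peter Stuyvesant’, 2 each in ‘China Pink’, ‘City of Haarlem’ and ‘Delft Blue’ and 1 in ‘Jan Bos’. Among all unigenes 0.694% to 2.57% were called higher and 0.697% to 1.90% lower in these contrasts. For Stage C against Stage B there were 9 in ‘Peter Stuyvesant’, 6 in ‘Pink Pearl’, 5 in ‘Gipsy Queen’, 3 in ‘Delft Blue’, 2 each in ‘China Pink’ and ‘Jan Bos’ and 1 in ‘City of Haarlem’. Over all unigenes the shares there were 0.405% to 3.21% higher and 0.403% to 1.65% lower.

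Of the germacrene D synthase match Cluster-20417.217986 the change of Stage A against Stage B differed by 5.14 in ‘Peter Stuyvesant’, 4.08 in ‘Pink Pearl’ and -4.57 in ‘Delft Blue’, and that of Stage C against Stage B by 4.82 in ‘Pink Pearl’, 3.36 in ‘Peter Stuyvesant’ and -4.11 in ‘China Pink’. The DXS 2 unigene Cluster-20417.190293 differed by 2.91 in ‘Gipsy Queen’ and by -3.37 in ‘Pink Pearl’ for Stage A against Stage B, and by 3.63 in ‘Gipsy Queen’ and 1.84 in ‘City of Haarlem’ for Stage C against Stage B. Another DXS 2, Cluster-20417.180578, differed by -2.41 in ‘China Pink’ for Stage A against Stage B.

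In ‘Peter Stuyvesant’ the change of Stage C against Stage B differed by -3.89 for Cluster-20417.169634, -3.22 for Cluster-20417.191262, -3.18 for Cluster-20417.243853, -3.14 for Cluster-20417.160703, -3.03 for Cluster-20417.193098, -2.81 for Cluster-20417.193097 and -2.80 for Cluster-20417.196786. In ‘Delft Blue’ it differed by 3.21 for Cluster-20417.193097, 2.85 for Cluster-20417.193098 and 2.44 for Cluster-20417.193099, and in ‘Jan Bos’ by -5.77 for the terpineol synthase match Cluster-20417.131717. For Stage A against Stage B the myrcene synthase match Cluster-20417.138060 differed by 3.34 in ‘Peter Stuyvesant’ and -2.99 in ‘Pink Pearl’, Cluster-20417.193097 by 2.69 in ‘Delft Blue’, Cluster-20417.362725 by 3.09 in ‘City of Haarlem’ and Cluster-20417.319745 by -4.30 in ‘Jan Bos’.

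The difference of tube against lobes differed between Stage A and Stage B for 8 members, against 6.50% of all unigenes called higher and 2.16% lower. It was 2.37 for the germacrene D synthase match Cluster-20417.350613 and -3.33 for the myrcene synthase match Cluster-20417.131714. The latter was near the floor at Stage B, with counts relative to library totals 8012-fold higher at Stage A. Tube-against-lobes values of the 17 abundant terpene synthases reached 2.61 at Stage B and were no lower than -0.85 at Stage A. The -3.33 thus rests mostly on the few counts of Stage B. Between Stage C and Stage B it differed for 2 members, against 2.73% and 1.19%, one of them Cluster-20417.190293 at 1.2.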

How the results depend on the processing

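Over stages, each of the 17 abundant terpene synthases was called higher at Stage A than at Stage B under each of the 12 alternatives run, and the members called higher at Stage A numbered 28 to 36. The 17 were chosen by their mean level over all libraries, Stage A included, so their number is a description and no support for the change. At Stage C against Stage B all 17 were called under these alternatives except without replicate 2 (16) and without replicate 3 (12), and without replicate 3 the test lost 7 of the 27 members called higher. Among single named members, 1613 values kept their direction and side of the threshold, 44 lost the call, 28 gained one and 1 turned round. This was the low myrcene synthase match Cluster-20417.190557 at Stage C against Stage B, with 0.0416 in each pair of stages by itself with libraries as replicates. Causes were not tested. Without the ‘Gipsy Queen’ flower 39 members still differed between cultivars in their stage difference.

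Members called lower moved most. For Stage A against Stage B they were 10 with each pair by itself, 10 in DESeq2 and 12 with total counts as library sizes. For Stage C against Stage B they were 12 with total counts, and for Stage A against Stage C 2 in limma-trend, DESeq2, total counts and without the ‘Gipsy Queen’ flower and 4 with each pair by itself. Summed over the 7 cultivars, calls lower at Stage A than at Stage B were 100 with total counts against 41, and at Stage C than at Stage B 42 with median-ratio size factors, 45 in DESeq2 and 92 with total counts against 26. Calls lower in a cultivar than in the other 6 were 110 in limma-trend and 125 in DESeq2 against 48. Members called between ‘China Pink’ and ‘Delft Blue’ were 1 with median-ratio size factors, limma-trend and without the ‘Gipsy Queen’ flower, and 8 in DESeq2, against 0.

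For tube against lobes, members higher over stages were 0 with filterByExpr, limma-trend and its flower block, and members lower 0 in limma-trend and its block. At Stage B members higher were 0 with filterByExpr, limma-trend and its block, and members lower 0 with these, with median-ratio size factors and without the ‘Gipsy Queen’ tube library. At Stage C there were 3 higher with filterByExpr, limma-trend and its block and 0 lower in limma-trend and its block. At Stage A there were 0 higher and 6 lower in limma-trend and its block.

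Leaving out each replicate number in turn gave 13 to 19 calls lower at Stage C than at Stage B within cultivars, 19 to 27 members with a stage difference between cultivars, and, for tube against lobes, 0 to 2 higher and 1 to 2 lower over stages, 0 higher and 0 to 1 lower at Stage B, 3 to 7 higher and 0 to 1 lower at Stage C, and 4 to 5 higher and 1 to 2 lower at Stage A. Shares over all unigenes in these smaller fits are not given here.

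The replicate block, with the number as a block over stages within a cultivar, gave 31 members higher and 7 lower for Stage A against Stage B, and as a block over cultivars 122 calls higher and 50 lower. Same-numbered flowers shared only a number (20 of 63 correlations over stages were above 0.1). The flower pairs the partitions, and its block in limma-trend gave the same counts of members as limma-trend without it.

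Depth limits the rare members, 41 of which were not tested. Short pieces, near-identical sequences and a single growing season limit what a unigene or cultivar stands for. Library scaling between stages moves small fold changes. The fit without a filter was not run for partitions, nor for the single-cultivar stage contrasts; F tests were not run in DESeq2, and the differences of tube effects were run under few alternatives. Outer against inner lobes at Stage C had 0 members called under each alternative run.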
